A study of Mus musculus with 10 samples.

Results

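Vascular cells make superoxide with membrane-bound NADPH oxidases, and convert it with superoxide dismutases to hydrogen peroxide, which catalase and glutathione peroxidases then remove. The transcripts of 10 genes of this system were described in the aortae of young and old mice. They encode subunits of NADPH oxidase (*Nox4*, *Cybb*, *Cyba* and *Noxo1*), the superoxide dismutases (*Sod1*, *Sod2* and *Sod3*), catalase (*Cat*) and glutathione peroxidases (*Gpx1* and *Gpx3*). The genes were chosen by their names and functions, with earlier results of these data known. All 10 were found among the 55453 gene symbols of the table, and all 10 were among the 14614 genes with enough counts to be tested.

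The RNA came from whole aortae of male C57BL/6 mice, 5 young mice aged 14.5 weeks and 5 old mice aged 92.5 weeks, with no genetic change or treatment in either group. Each mouse gave 1 library, and the fat around the vessel had been removed before extraction. Normalized counts are the counts on a gene divided by the library's size factor, with the mean ± SD of each group of 5 mice. A log2 fold change above 0 means a higher level in old aortae. It comes, with its standard error (SE), from an edgeR count model of all tested genes, in which a Benjamini-Hochberg adjusted p below 0.05 was the limit for calling a gene.

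The catalytic subunits of NADPH oxidases carry electrons from NADPH across a membrane to oxygen. NOX4, from *Nox4*, is the main form in vascular smooth muscle; it needs only the partner p22phox, encoded by *Cyba*, and releases mostly hydrogen peroxide. NOX2, from *Cybb*, is the oxidase of phagocytes and is also found in endothelial cells and adventitial fibroblasts. It works only when cytosolic subunits and a RAC protein join it. Of the dismutases, the *Sod1* product is in the cytosol, the *Sod2* product in mitochondria and the *Sod3* product outside the cell, where arteries hold much of it. Catalase works mainly in peroxisomes, GPX1 mainly in the cytosol and GPX3 is secreted.

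Of the 10 genes, 1 rose with age (*Nox4*) and 1 fell (*Cat*), whereas 8 did not pass the test. Over all tested genes 11.5% were called, 6.48% higher and 4.99% lower in old aortae, so that 2 of 10 is not far from the background of this comparison. *Nox4* and *Cat* were also the members whose old and young mice did not overlap. Non-overlapping groups were found for 9.92% of all tested genes, with all old mice above all young mice in 5.37% and below them in 4.55%. The median log2 fold change of the 10 genes was -0.03, beside 0.00 over all tested genes.

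**Figure D1:**
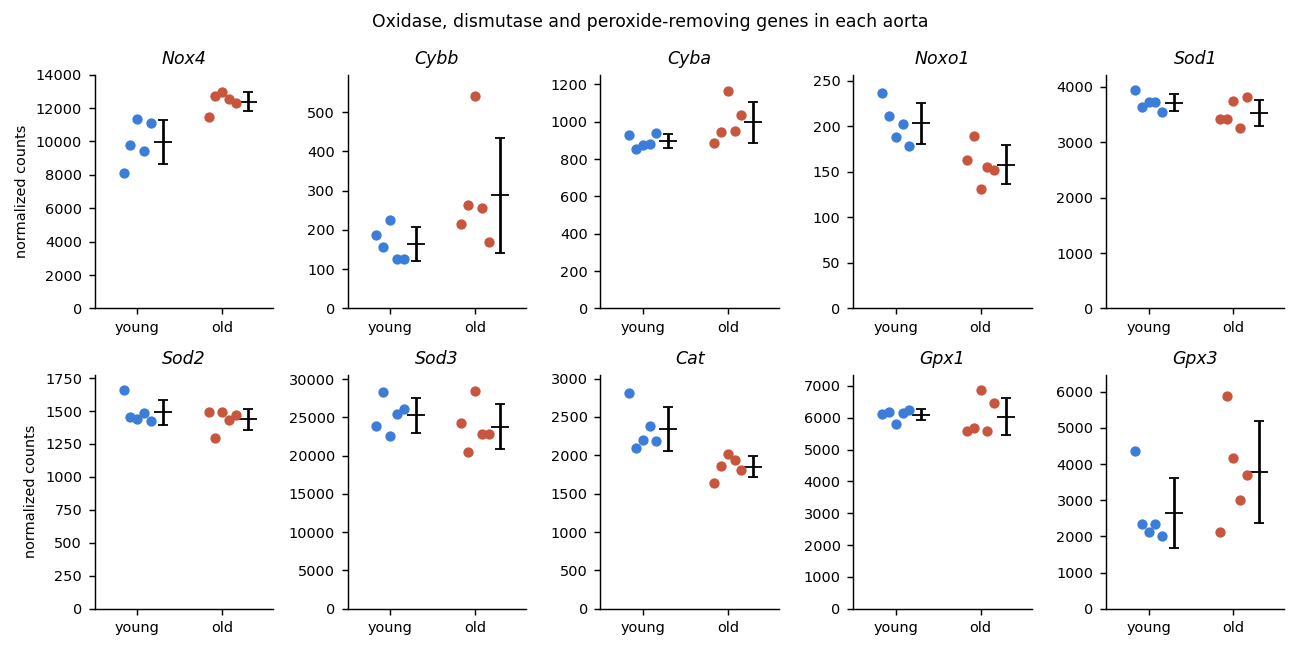
Normalized counts (vertical axes, each from 0) of the 10 genes in each aorta, with young mice in blue, old mice in red, and the mean and SD of the 5 mice beside them. The groups separate for *Nox4*, where the lowest old mouse is at 11444 and the highest young mouse at 11320, and for *Cat*, where the highest old mouse is at 2011 and the lowest young mouse at 2101.

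The windows upstream of these 2 genes are shown since their transcripts changed in opposite directions. They are the 200 bases before the RefSeq transcription start in GRCm38.p6, written 5′ to 3′ on the gene's own strand. The *Nox4* window, chr7:87246449-87246648 on the plus strand, lies inside the GENCODE span of the gene, which begins at 87246096. The *Cat* window is chr2:103485154-103485353 on the minus strand, and its last bases lie inside the GENCODE span of the gene, which reaches 103485160. Capitals mark matches on either strand to a CCAAT box (CCAAT) or a GC box (GGGCGG).
Nox4: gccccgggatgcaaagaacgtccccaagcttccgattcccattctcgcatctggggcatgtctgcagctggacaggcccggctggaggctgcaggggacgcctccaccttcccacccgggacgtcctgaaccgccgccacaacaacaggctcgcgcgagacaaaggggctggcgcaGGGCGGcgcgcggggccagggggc
Cat: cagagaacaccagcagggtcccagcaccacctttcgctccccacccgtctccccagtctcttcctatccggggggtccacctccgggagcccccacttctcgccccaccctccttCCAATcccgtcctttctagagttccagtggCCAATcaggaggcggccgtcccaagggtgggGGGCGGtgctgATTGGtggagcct

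Each window held 1 GC box, which began 24 bases before the start site (-24) in both. The *Cat* window held 3 CCAAT boxes, at -85, -55 and -13, and another lay further upstream at -230, whereas the *Nox4* window had none. In windows from 250 bases before to 50 bases after the start, CCAAT occurred in 37.4% and GGGCGG in 35.7% of 32851 promoters. The core of the antioxidant response element (TGACNNNGC, found in 12.4% of promoters), an AP-1 site (TGANTCA, 7.81%) and a FOXO site (GTAAACA, 3.65%) were searched in the same way on both strands. None of them matched in the *Nox4* or *Cat* window. Of the 9 members with a promoter in the table, *Sod1* had the antioxidant response element core, at -56, and *Cybb* had the AP-1 site, at -139. *Sod3* was not among the promoters used. A match is a description of the letters and not a measurement of binding.

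*Nox4* (chr7:87246096-87398710, plus strand, GRCm38) rose in old aortae. The young mice 1 to 5 had 8124, 9815, 11320, 9445 and 11111 normalized counts, and the old mice 1 to 5 had 11444, 12728, 12958, 12533 and 12287. Every old mouse was above every young mouse, and the old mice were closer together than the young ones. The means were 9963 ± 1307 in young and 12390 ± 583 in old aortae. The difference estimated by the edgeR model was 25.1% (95% interval 9.96 to 42.2%). On the log2 scale the fold change was 0.32 with an SE of 0.09 (edgeR's Benjamini-Hochberg adjusted p = 0.0282). The call was lost in 5 of the 10 fits that left out 1 mouse, those without young 2, young 4, old 3, old 4 or old 5, with adjusted p from 0.0548 to 0.0768. Whichever mouse was left out, the log2 fold change stayed between 0.26 and 0.37.

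*Cybb* (chrX:9435252-9487771, minus strand) had 188, 157, 224, 126 and 126 normalized counts in the young mice 1 to 5, and 215, 263, 541, 255 and 168 in the old mice. The groups overlapped: 3 of 5 old mice were above the highest young mouse, and old 3 stood far above the others. The means were 164 ± 42.4 in young and 289 ± 146 in old aortae. The difference of 77.0% estimated by the edgeR model (95% interval 10.4 to 184%, log2 fold change 0.82, SE 0.31) did not pass its test over all genes (Benjamini-Hochberg adjusted p = 0.115). Without old 3 it was 0.46 (adjusted p = 0.164). DESeq2 on the same counts called *Cybb* (log2 fold change 0.81, Benjamini-Hochberg adjusted p = 0.0271).

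Phagocytes express *Cybb*, so markers of macrophages and monocytes were set beside it. All 12 marker genes were tested, 6 of them were called higher (beside 6.48% of all tested genes) and none lower. Their median log2 fold change was 0.67. The 6 that rose, named after their values had been seen, were *Cd68*, *Adgre1*, *C1qa*, *C1qb*, *C1qc* and *Fcgr1*. The summed level of the list ranged from 12271 to 14638 in young and from 15258 to 26638 in old aortae, highest in old 3, and none of the 12 genes was at 0. *Lyz2*, the marker with the most counts, was at 3732 ± 521 in young and 5451 ± 1898 in old aortae (log2 fold change 0.55, edgeR, Benjamini-Hochberg adjusted p = 0.111). On the log2 scale, *Cybb* minus the mean of the 12 markers was -1.74 ± 0.31 in young and -1.58 ± 0.31 in old aortae, a difference of 0.16 (exact two-sided permutation test, p = 0.444, where 5 against 5 allows no p below 0.00794). In whole tissue, more cells of a type and more transcript per cell cannot be told apart.

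*Cyba* (chr8:122424776-122432930, minus strand), which encodes the membrane partner of both NOX4 and NOX2, had 854 to 938 normalized counts in young mice with a median of 878. In old mice it had 885, 946, 1166, 949 and 1038, so that the groups overlapped and old 3 was again the highest. The means were 895 ± 36.3 and 997 ± 109, with a log2 fold change of 0.16 (SE 0.07) that did not pass the test (edgeR, Benjamini-Hochberg adjusted p = 0.169). The log2 difference of *Cyba* from the mean of the macrophage markers was 0.74 ± 0.17 in young and 0.32 ± 0.24 in old aortae, a change of -0.41 (exact two-sided permutation test, p = 0.0238). That value sets the small difference in *Cyba* against the larger one in the markers, and is no test of *Cyba* alone.

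*Noxo1* (chr17:24696234-24700529, plus strand) encodes an organizer subunit best known from the NOX1 oxidase. The young mice had 237, 211, 188, 202 and 178 normalized counts and the old mice 163, 189, 131, 155 and 152. In 4 of 5 old mice the value lay below that of every young mouse. A log2 fold change of -0.36 (SE 0.12) did not pass the test (203 ± 22.7 against 158 ± 20.7, edgeR, Benjamini-Hochberg adjusted p = 0.0629), whereas DESeq2 called it lower (log2 fold change -0.37, adjusted p = 0.0313). The counts of *Noxo1* are uncertain. Of its exonic sequence, 70.4% is overlapped by *Tbl3* on the other strand, and the strand setting of the counting is not given in the sources used here. *Tbl3* itself was at 572 ± 35.3 in young and 571 ± 48.3 in old aortae (log2 fold change 0.01, edgeR, Benjamini-Hochberg adjusted p = 0.964). *Nox1*, the oxidase that *Noxo1* serves, had at most 2.80 normalized counts in any mouse and *Noxa1*, its activator subunit, at most 1.09.

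Of 16 other genes for subunits and regulators of NADPH oxidases, 12 were tested, 1 was called higher and 1 lower, with a median log2 fold change of 0.08. Beside this, 6.48% of all tested genes were called higher and 4.99% lower. *Rac2*, the small GTPase of the phagocyte oxidase, rose from 85.1 ± 18.2 to 168 ± 76.8 normalized counts (log2 fold change 0.99, SE 0.26, edgeR, Benjamini-Hochberg adjusted p = 0.0315). The young mice lay between 66.4 and 106 and the old mice between 116 and 302, highest in old 3, the mouse with the highest *Cybb* and macrophage markers. *Sh3pxd2a*, which encodes the scaffold TKS5, an organizer related to NOXO1, fell by 0.44 on the log2 scale, from 12451 ± 1211 to 9156 ± 1216 normalized counts (SE 0.10, adjusted p = 0.0109). The groups did not overlap.

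*Ncf1* and *Ncf4*, which encode cytosolic subunits of the phagocyte oxidase, did not pass the test. *Ncf1*, the organizer, had a log2 fold change of 0.54 (edgeR, Benjamini-Hochberg adjusted p = 0.0564), with 122 to 173 normalized counts in young and 149 to 279 in old mice. For *Ncf4* the log2 fold change was 0.74 (adjusted p = 0.176). For both genes the highest mouse was old 3.

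The superoxide dismutases did not change detectably. *Sod1* (chr16:90220754-90226329, plus strand) had 3951, 3645, 3724, 3730 and 3543 normalized counts in young and 3424, 3426, 3747, 3260 and 3816 in old mice. *Sod2* (chr17:13006846-13040063, plus strand) had 1656, 1453, 1439, 1487 and 1421 in young and 1491, 1296, 1491, 1430 and 1473 in old mice. *Sod3* (chr5:52363791-52371418, plus strand) had 23804, 28355, 22506, 25448 and 26097 in young and 24303, 20474, 28420, 22815 and 22783 in old mice. In all 3 genes the groups overlapped, and the highest mouse for *Sod3* was an old one.

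For *Sod1* the log2 fold change was -0.07 (95% interval -0.19 to 0.06, edgeR, Benjamini-Hochberg adjusted p = 0.521), an interval that allows changes from -12.4% to 4.28%. For *Sod2* it was -0.05 (95% interval -0.18 to 0.08, adjusted p = 0.679), which allows -11.5% to 5.94%. For *Sod3* it was -0.08 (95% interval -0.27 to 0.12, adjusted p = 0.631), which allows -17.3% to 8.40%. Of the 50-base windows of *Sod2*, 21% also occur in transcripts of other genes, mostly *Rps6ka2*, which was itself lower in old aortae (242 ± 31.6 against 160 ± 18.2 normalized counts, log2 fold change -0.59, edgeR, Benjamini-Hochberg adjusted p = 0.00583).

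Copper delivery was read from 5 genes that carry the metal to the dismutases and other enzymes, of which 4 were tested and 1 was called. The share called over all tested genes was 11.5%. *Slc31a1*, which encodes the copper importer CTR1, fell from 476 ± 20.8 to 386 ± 21.2 normalized counts (log2 fold change -0.29, SE 0.07, edgeR, Benjamini-Hochberg adjusted p = 0.0115). The young mice had 457 to 511 and the old mice 352 to 408, with no overlap. *Ccs*, the chaperone that loads copper into SOD1, had a log2 fold change of 0.09 (adjusted p = 0.420).

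*Cat* (chr2:103453849-103485160, minus strand) fell in old aortae. The young mice 1 to 5 had 2817, 2101, 2204, 2387 and 2181 normalized counts, and the old mice 1 to 5 had 1645, 1862, 2011, 1932 and 1809. Every old mouse was below every young mouse, and young 1 was the highest of the 10. The means were 2338 ± 288 in young and 1852 ± 138 in old aortae. The difference estimated by the edgeR model was -20.3% (95% interval -29.6 to -9.88%). This was a log2 fold change of -0.33 with an SE of 0.08 (edgeR's Benjamini-Hochberg adjusted p = 0.0212). The call was lost without young 4, old 1 or old 5 (adjusted p from 0.0515 to 0.0525) and with scaling by library size alone (adjusted p = 0.0514), and the log2 fold change lay between -0.37 and -0.25 when any 1 mouse was left out.

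*Gpx1* (chr9:108338903-108340343, plus strand) had 6105, 6191, 5790, 6134 and 6245 normalized counts in young and 5571, 5678, 6860, 5595 and 6470 in old mice. The means were almost equal (6093 ± 178 and 6035 ± 593), but the old mice were spread more widely, on both sides of the young ones. Its log2 fold change was -0.01 (95% interval -0.15 to 0.14, edgeR, Benjamini-Hochberg adjusted p = 0.971).

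*Gpx3* (chr11:54902453-54910377, plus strand) varied most among mice of the peroxide-removing genes. The young mice had 4358, 2344, 2132, 2353 and 2013 normalized counts and the old mice 2118, 5889, 4172, 2997 and 3691. Young 1 stood above the other young mice, and old 2 was the highest of all. The means were 2640 ± 971 and 3773 ± 1413, and the log2 fold change of 0.52 (SE 0.30, 95% interval -0.15 to 1.19) did not pass the test (edgeR, Benjamini-Hochberg adjusted p = 0.304). It was 0.78 without young 1 (adjusted p = 0.0796) and 0.30 without old 2 (adjusted p = 0.561).

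Fat cells are rich in *Cat* and *Gpx3*, so adipocyte markers were set beside these genes. Of 8 markers none passed the test and 1 had a log2 fold change above 0, with a median of -0.92. Their summed level ranged from 10824 to 36755 normalized counts in young and from 6200 to 15429 in old aortae, and none of them was at 0. It was highest in young 1, the mouse with the highest *Cat* and the highest young *Gpx3*, and among old mice in old 2, with the highest *Gpx3*. Other mice did not follow this order. In old 2 *Cat* was 1862, below old 3 (2011) and old 4 (1932), whose adipocyte sums were 9973 and 8208. In young 4, with the next highest young sum (19260), *Gpx3* was 2353, beside 2344 in young 2 (sum 11501). *Cfd*, the marker with the most counts, had 7674 ± 4999 in young and 3030 ± 1585 in old aortae (log2 fold change -1.33, edgeR, Benjamini-Hochberg adjusted p = 0.105). *Cat* was called lower without young 1 (log2 fold change -0.25, edgeR's Benjamini-Hochberg adjusted p = 0.0204). It was not called without young 4, old 1 or old 5 (log2 fold change -0.32, -0.29 and -0.32, adjusted p from 0.0515 to 0.0525). The adipocyte sums of these mice were 19260, 6200 and 8603, and their *Cat* levels 2387, 1645 and 1809. Over all genes 1132, 1497 and 1267 were called in these fits, beside 1676 with all mice. The part of fat cells in the level of *Cat* was not tested.

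**Figure D2:**
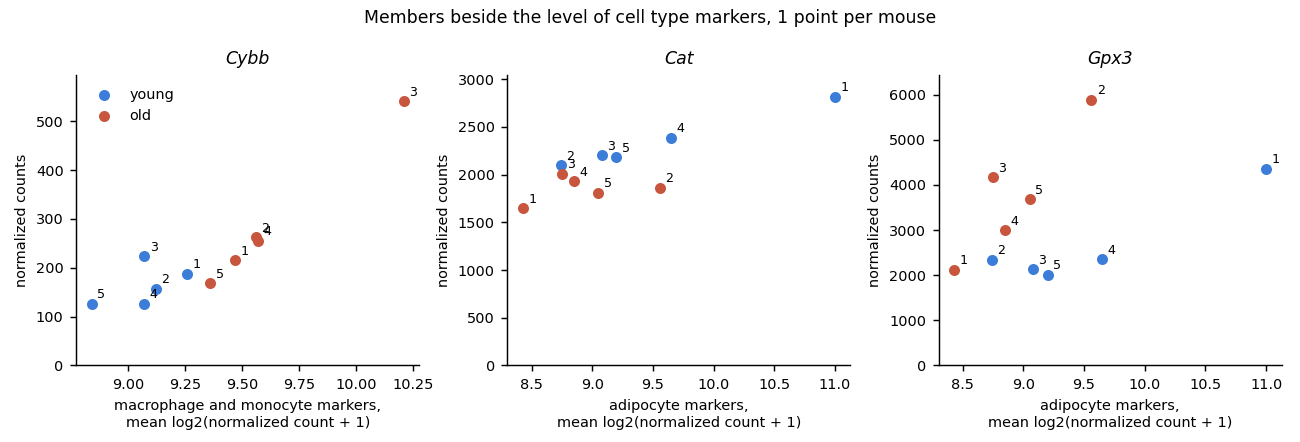
Normalized counts of *Cybb*, *Cat* and *Gpx3* (vertical axes from 0) against the mean log2(normalized count + 1) of macrophage and monocyte markers (left) or adipocyte markers (middle and right), 1 point per mouse with its number, young in blue and old in red. Old 3 is highest in *Cybb* (541) and in macrophage markers, and young 1 is highest in *Cat* (2817) and in adipocyte markers, whereas *Gpx3* is highest in old 2 (5889).

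Of 12 other genes for glutathione peroxidases and peroxiredoxins, 9 were tested and 1 was called, with a median log2 fold change of 0.02. The share called over all tested genes was 11.5%. *Gpx7*, a peroxidase of the endoplasmic reticulum, fell from 611 ± 33.5 to 466 ± 57.9 normalized counts (log2 fold change -0.38, SE 0.08, edgeR, Benjamini-Hochberg adjusted p = 0.0114), with all old mice below all young mice. *Gpx4*, which reduces lipid peroxides, had a log2 fold change of -0.07 (adjusted p = 0.695), and 34.7% of its windows are shared, mostly with the pseudogene *Gpx4-ps2*. The 3 untested genes, *Gpx2*, *Gpx5* and *Gpx6*, had no count in any mouse. Of 17 genes that supply glutathione, thioredoxin and NADPH, all were tested and 1 was called, beside the same 11.5%, with a median of -0.06. *Gss*, glutathione synthetase, rose from 398 ± 40.5 to 511 ± 70.7 (log2 fold change 0.37, SE 0.10, adjusted p = 0.0309), although old and young mice overlapped.

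Of 14 genes for other sources of superoxide and hydrogen peroxide, 13 were tested, 3 were called higher and 1 lower, with a median log2 fold change of 0.17. Beside this, 6.48% of all tested genes were called higher and 4.99% lower. *Xdh*, xanthine dehydrogenase, whose oxidase form makes superoxide, had 1280 to 1515 normalized counts in young and 1660 to 2577 in old mice, and rose without overlap (log2 fold change 0.45, SE 0.11, edgeR, Benjamini-Hochberg adjusted p = 0.0223). *Aox1*, the related aldehyde oxidase, had 723 to 971 in young and 1213 to 1331 in old mice, and rose by 0.52 on the log2 scale (SE 0.08, adjusted p = 9.66e-04). This was the smallest adjusted p among the genes of the system named here. *Maob*, a monoamine oxidase of the mitochondrial outer membrane that releases hydrogen peroxide, rose by 0.24 (SE 0.07, adjusted p = 0.0339), with overlapping groups.

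*Aoc3*, a copper amine oxidase on the surface of smooth muscle and fat cells that also makes hydrogen peroxide, fell by 0.44 on the log2 scale, from 12318 ± 799 to 9047 ± 635 normalized counts (SE 0.07, edgeR, Benjamini-Hochberg adjusted p = 0.00127). Here too the groups did not overlap. *Nos3*, endothelial nitric oxide synthase, which can make superoxide when uncoupled, had 1206 to 1959 normalized counts in young and 652 to 1613 in old mice (log2 fold change -0.60, adjusted p = 0.110). Its value was named after the counts had been seen. Of 7 endothelial markers 1 was called lower (*Tek*) and none higher, beside 4.99% and 6.48% of all tested genes. All 7 had a log2 fold change below 0, with a median of -0.72, although *Kdr* was almost unchanged (-0.04). Their summed level was 19666 to 33864 in young and 9886 to 22629 in old aortae. *Pecam1*, with the most counts, had an adjusted p of 0.0554 by edgeR. The part of endothelial cells in the level of *Nos3* was not tested.

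**Figure D3:**
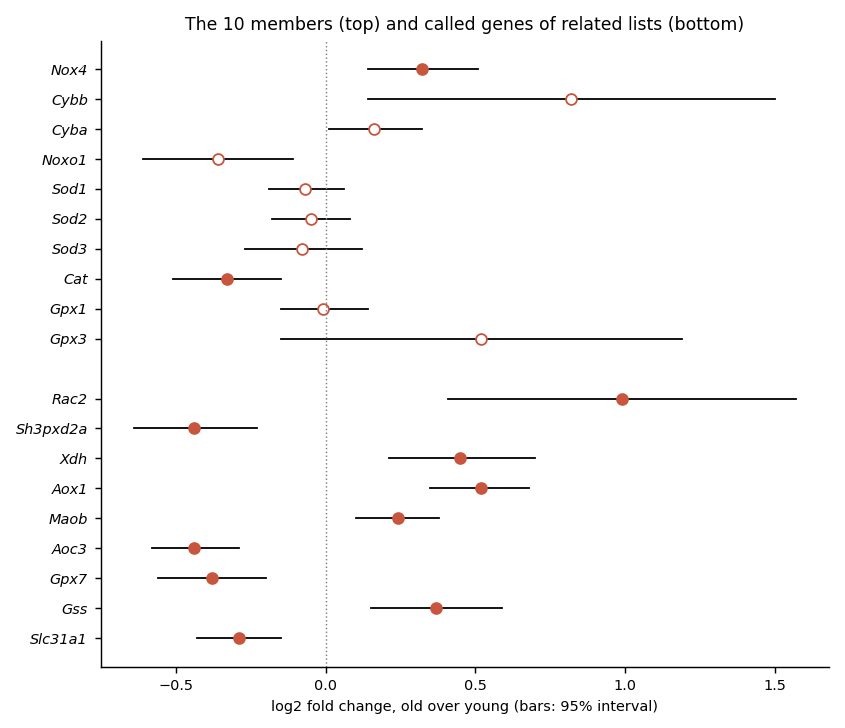
Log2 fold change, old over young, of the 10 genes (upper block) and of the called genes in the lists of other oxidase subunits, other sources, peroxide removal, cofactor supply and copper delivery (lower block), with 95% intervals. Filled points passed the edgeR test over all genes; in the upper block these are *Nox4* (0.32) and *Cat* (-0.33), while *Cybb* (0.82) has the widest interval of the 10.

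Levels can be compared between genes only per length of transcript. As normalized counts per kilobase of exon, the order in young aortae ran from *Sod3* (6753 ± 598) through *Gpx1* (4228 ± 123), *Gpx3* (1456 ± 536), *Nox4* (1176 ± 154), *Sod1* (937 ± 37.9), *Cat* (895 ± 110) and *Cyba* (861 ± 35) to *Sod2* (149 ± 9.52), *Noxo1* (67.5 ± 7.53) and *Cybb* (28.3 ± 7.30). Neighbours whose ranges of mean ± SD overlapped were *Gpx3* and *Nox4*, *Sod1* and *Cat*, and *Cat* and *Cyba*. In old aortae *Nox4* was at 1463 ± 68.9, *Cyba* at 959 ± 105, *Sod1* at 890 ± 59.6, *Cat* at 709 ± 53.0 and *Cybb* at 49.7 ± 25.2. There *Cat* ranked below *Cyba* and *Sod1*, and *Noxo1* (52.4 ± 6.86) and *Cybb* could not be separated. The order depends on the length used. Per kilobase of the principal transcript, young aortae had 5801 ± 235 for *Sod1*, next to *Gpx1* (5684 ± 166) and below *Sod3*, and 1203 ± 48.8 for *Cyba*, above *Cat* (895 ± 110). *Nox4* was not given a principal length and is left out of that order.

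Among the dismutases, per kilobase of exon, *Sod3* made up 86.1% ± 1.38 of the sum in young and 85.9% ± 1.24 in old aortae, *Sod1* 12% ± 1.19 and 12.1% ± 1.15, and *Sod2* 1.91% ± 0.206 and 1.95% ± 0.135. The share of *Sod1* depends on the length used, since the combined exons of the annotated *Sod1* transcripts span 3970 bases and its principal transcript 641. With principal transcripts *Sod1* made up 45.4% in young and 45.6% in old aortae and *Sod3* 52.7% and 52.4%. Under either length the shares in young and old aortae differed by less than the spread between mice.

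Among the 3 peroxide-removing genes, per kilobase of exon, *Cat* made up 13.6% ± 0.649 in young and 10.3% ± 1.14 in old aortae, with ranges of 12.6 to 14.1% and 9.02 to 11.8% that did not overlap. *Gpx1* made up 64.7% ± 5.61 and 60.6% ± 6.67, and *Gpx3* 21.7% ± 5.36 and 29.1% ± 7.49, with overlapping ranges.

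The genes whose levels followed *Nox4* most closely over the 10 mice, once the group means were removed, were *Cyb5r4*, *Tmod3* and *Tmem123*. Their mean absolute difference from *Nox4* was 0.223, 0.225 and 0.290 SD, beside a median of 1.13 SD over the tested genes. They were picked as the smallest differences, so that lying below the median is no test of a link. None of the 3 was called (log2 fold change -0.06, -0.07 and -0.06). The nearest gene of each of the 10 members lay at 0.163 to 0.284 SD. For *Cat* the 3 nearest genes were *Gypc* (0.251 SD), *Pfkfb1* (0.271 SD) and *Tmem45b* (0.291 SD), beside a median of 1.15 SD. Of these only *Pfkfb1* was called, lower in old aortae. For *Cybb*, an uncalled gene added after its values had been seen, the nearest were *Selplg* (0.163 SD), *Lyz2* (0.174 SD) and *Coro1a* (0.176 SD). *Lyz2* is one of the macrophage markers. Old 3 was the highest mouse for both *Cybb* (541) and *Lyz2* (8705), and the part of this mouse in their likeness was not tested.

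Other cells could also be present in the samples. Of 8 neutrophil markers none had enough counts to be tested. Their summed level was 9.06 to 22.5 normalized counts in young and 11.6 to 122 in old aortae, with most counts on *S100a9* and with *Ly6g* and *Mpo* at 0 in all young mice. B cell markers (most counts on *Cd79b*) ranged from 17.1 to 118 in young and from 37.0 to 411 in old aortae, with none of 3 tested genes called. T cell markers (most counts on *Cd4*) ranged from 17.4 to 41.9 and from 56.0 to 171, and both tested genes, *Cd4* and *Cd3g*, were called higher. Smooth muscle markers (most counts on *Acta2*) summed to 796386 to 945758 normalized counts in young and 736475 to 900014 in old aortae, and 1 of 7 was called higher (*Smtn*) and none lower. Of 7 fibroblast markers (most counts on *Col3a1*) 1 was called higher (*Lum*) and 3 lower (*Pi16*, *Col1a1* and *Col3a1*). Red cell markers (*Hbb-bs*) gave no call among 5 tested, and striated muscle markers (*Tnnt2*) gave 1 call, *Tnnt2* itself, higher, among 5 tested. Called genes of the marker lists were named after their values had been seen, and 11.5% of all tested genes were called.

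The libraries held 19640401 to 22886153 counts on genes, and the variation between 2 mice of 1 group over all genes was 8.61 to 64.1 times what counting error gives. Mitochondrial genes made up 11% of the counts in old 2 and no more than 6.51% in the other libraries. Old 2 was the highest mouse for *Gpx3* and *Xdh*. Without old 2, *Nox4* (adjusted p = 0.0488) and *Cat* (adjusted p = 0.0361) were still called by edgeR. Without old 2 and old 3 together, *Cat* was called (log2 fold change -0.38, adjusted p = 0.0441) and *Nox4* was not (0.28, adjusted p = 0.126).

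**Figure D4:**
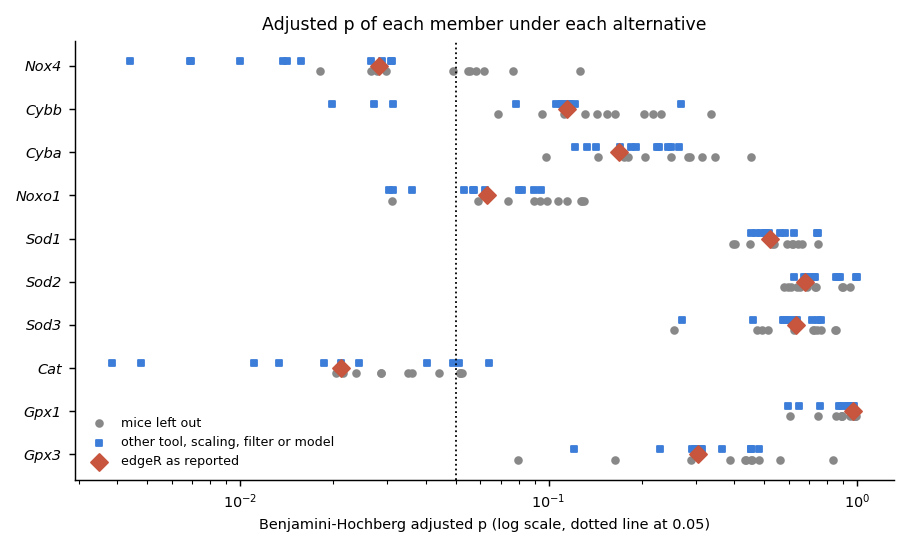
Benjamini-Hochberg adjusted p (log axis, dotted line at 0.05) of each of the 10 genes as reported (red diamonds), with another tool, scaling, filter or model (blue squares) and with mice left out (grey circles). *Nox4* lies below 0.05 in 16 and *Cat* in 17 of 22 alternatives, *Noxo1* in 4 and *Cybb* in 3, and *Cyba*, the dismutases, *Gpx1* and *Gpx3* in none.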

How the data were processed

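RNA of 10 aortae was sequenced from poly(A) libraries. Per the labels, the authors filtered reads with fastp 0.20.0, aligned them to GRCm38 with STAR 2.7.0f and counted them per gene (GENCODE M22) with featureCounts of Subread 1.6.4. The deposited values are raw counts without normalization. The libraries are labelled stranded, and how strand and reads with several alignments were counted is not given in the sources used here.

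Genes were filtered with filterByExpr, which kept 14614 of 28011 genes with a count, and tested with the quasi-likelihood F test of edgeR 4.0.16 (TMM scaling, age as the only term) under R 4.3.3. Normalized counts used the size factors of DESeq2 1.42.0. *Cybb* and *Cyba* relative to macrophage markers, on log2(normalized count + 1), were tested by exact two-sided permutation of the mice. Positions, lengths and shared 50-base windows came from GENCODE M21 (54471 of 55453 symbols matched to 1 gene), and promoters from RefSeq, which held 9 of the 10 genes.

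The genes, lists and tests were chosen with earlier results of these data known. Named were the 10 genes, every called gene of the related lists, uncalled genes needed for their roles, the most abundant gene of each marker list, and the 3 genes nearest to each called member. The 3 genes nearest to *Cybb* were added after its values had been seen. Alternatives were DESeq2, limma-voom 3.58.1 with and without quality weights, other scalings and filters, the replicate number as a block, an offset for GC content and length, a threshold of 0.01, and each mouse left out. Principal transcript length and the omission of old 2 and 3 together were added after seeing the data. The count tests were tested on simulated data.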

Additional observations from a re-analysis of the deposited data

Results flagged for a closer look

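Dixon's test at the 95% level (gap over range above 0.71) was run on the 10 genes and the called genes of the related lists. In 5 of 38 groups of 5 mice, 1 mouse stood apart from the other 4. Chance flags about 1 in 20 independent groups, but these groups come from the same 10 mice. Old 3 had 541 normalized counts of *Cybb*, beside 168 to 263 in the other old mice (gap over range 0.747). The same mouse had 302 of *Rac2*, beside 116 to 154 (0.796), and the highest summed level of macrophage markers (26638). Young 1 had 4358 of *Gpx3*, beside 2013 to 2353 in the other young mice (0.855), and 1656 of *Sod2*, beside 1421 to 1487 (0.719). That mouse also had the highest summed level of adipocyte markers (36755). Old 2 had 2577 of *Xdh*, beside 1660 to 1815 (0.831), in the library with the highest mitochondrial share. The part of these cells and of the mitochondrial share in these values was not tested.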

How the results depend on the processing

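The log2 fold changes of 8 of the 10 genes kept their sign under all 22 alternatives; the exceptions were *Sod2*, at 0.00 with the offset for GC content and length and the replicate block together, and *Gpx1*, at 0.02 with upper-quartile scaling, 0.02 with scaling by library size alone, and between -0.06 and 0.02 when each mouse was left out. The number of genes called was 1676, and became 2643 with quality weights, 954 without old 2 and 3, and 658 at a threshold of 0.01, and 1132 to 2367 when each mouse was left out. The number of the 10 genes called was 2, and became 4 with DESeq2 (*Cybb* and *Noxo1* added), 1 with library size alone, 1 without old 2 and 3, 0 at a threshold of 0.01, where the adjusted p of *Cat* (0.0212) was the smallest, and 0 to 3 when each mouse was left out, with 0 without young 4 or old 5. *Noxo1* was also called with quality weights (adjusted p = 0.0303), with the GC and length offset (0.0360) and without old 2 (0.0311).

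The replicate numbers did not pair the mice: the correlation of same-numbered mice after removal of the group means was -0.294 to 0.129 over the 5 pairs, and not every pair was above 0.1. With the replicate block 1261 genes were called, *Nox4* among them (adjusted p = 0.0308) and *Cybb* (0.0199), while *Cat* was not (0.0639); *Cat* was also not called with library size alone (0.0514). The change of *Cyba* relative to macrophage markers, -0.41, had p = 0.0625 in the exact sign-flip test over pairs of one number, which is the smallest p that test can give. Shares moved with the length used, young and old: not divided by length, *Sod2* 4.92 and 5.02%, *Sod3* 82.8 and 82.6%, *Cat* 21.1 and 16.1% and *Gpx1* 55.5 and 52.4%; with principal transcripts, *Sod1* 45.4 and 45.6%, *Sod3* 52.7 and 52.4% and *Cat* 10.9 and 8.22%. No gene of the 10 was removed by the low-count filter, so the alternatives for removed genes gave no value. Apart from the construction of the length and threshold alternatives, the cause of these changes was not tested.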
